A study of Mus musculus with 11 samples.

Results

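The immediate early response genes are the transcription factors, phosphatases and other regulators that cells switch on within minutes of a stimulus, without new protein synthesis. They were taken here as 37 named genes of the 54532 genes in the count table of a mouse heart RNA-seq study, matched by gene symbol, and all 37 were found. The rule gives the genes by name. The study sequenced total RNA of whole hearts from C57BL/6 mice, all labelled 26 weeks, and its title concerns METTL3 in diabetic cardiomyopathy. METTL3 is the enzyme that methylates adenosines in mRNA. The 11 libraries fall into 3 groups. In 4 libraries, called METTL3 here, the mice had HFD, STZ and an adeno-associated virus (AAV) for METTL3. In another 4 libraries, called HFD+STZ, they had HFD and STZ, and the labels name no virus for them. HFD and STZ are the usual short names of high-fat diet and streptozotocin, which together serve as a mouse model of diabetes. The 3 Chow libraries come from mice on chow, with no injection named. No source used here gives the promoter of the viral insert, the viral serotype or the animals' sex. The labels do not say that each library is a separate animal, and every p-value below rests on the scatter among the libraries alone.

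As background, immediate early genes carry binding sites for factors that are already present in resting cells. Serum response factor with its ELK partners binds CArG boxes, and CREB binds the cyclic AMP response element, and both respond to MAP kinase or calcium signals. In the heart the FOS, JUN, EGR and NR4A genes are known to respond to stretch, catecholamines, ischaemia and the handling of tissue, and KLF2 and KLF4 to blood flow over endothelium. Their mRNAs are short-lived, and several members (the DUSP phosphatases, ZFP36, SOCS3) shut the response down again.

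Total counts per library lay between 13900531 and 16952639. Mitochondrial genes took 37.7 to 45.5% of counts in METTL3 hearts, 28.6 to 32.5% in HFD+STZ hearts and 9.28 to 27.4% in Chow hearts, with Chow replicate 3 the lowest. That library also had the fewest genes with a count, 15734, against 17317 to 20769 elsewhere. The sample codes in the labels run from 25 to 33 for METTL3 replicates 1 to 3 and HFD+STZ replicates 2 to 4, and from 78 to 98 for METTL3 replicate 4, HFD+STZ replicate 1 and all Chow libraries. Code range and the chow diet therefore overlap in large part. Mettl3 itself averaged 8.39 ± 2.19 CPM in METTL3 hearts and 6.35 ± 1.58 CPM in HFD+STZ hearts (SD, n = 4 each), with log2 fold change 0.40, SE 0.32 and adjusted p = 0.759 in edgeR. No source used here gives the sequence or species of the viral insert, so whether its transcripts are counted under Mettl3 is unknown, and these values do not check the label. Cardiomyocyte markers were detected in every library. Levels below are CPM, the count scaled to the library's size with TMM factors, and adjusted p is the Benjamini-Hochberg value of edgeR's quasi-likelihood test over 14862 genes. A gene is named as called where that adjusted p is under 0.05, unless another tool is given.

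All 37 genes passed the filter on low counts. They were chosen with earlier results of these data known, so their shares beside those of all genes are a description and not a test. Most of the 37 were lower in hearts of the diabetic model, with or without the virus, than in Chow hearts. They numbered 28 in METTL3 and 25 in HFD+STZ hearts, beside 50.8% and 51.6% of all genes. In METTL3 against Chow hearts, 7 of the 37 fell at an adjusted p under 0.05, which is 18.9% of them against 3.2% of all genes tested, and none rose. These 7 were Ier5, Fosl2, Klf2, Nr4a1, Gadd45a, Dusp5 and Jund. At an unadjusted p under 0.05, 15 members (40.5%) were lower, against 11.1% of all genes, and 3 (Gadd45b, Rhob and Maff; 8.11%) were higher, against 10.6% of all genes. DESeq2 called 9 members (24.3%, against 10.2% of all genes), the 7 with Junb and Atf3, and limma voom with quality weights called 17 (45.9%, against 20.7%), of which Klf10 was higher and 16 were lower. In HFD+STZ against Chow hearts, edgeR called 0 members at an adjusted p under 0.05, where 0.168% of all genes were called. At an unadjusted p under 0.05, 12 members (32.4%) were lower there against 6.53% of all genes, and 3 (Gadd45b, Maff and Csrnp1; 8.11%) were higher against 5.58%. DESeq2 called 2 members in that comparison, Nr4a1 and Atf3 (5.41%, against 2.07% of all genes), and limma voom called 14 (37.8%, against 13.1%), of which Myc was higher and 13 were lower.

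METTL3 against HFD+STZ hearts is the comparison that differs by the virus. No member reached an adjusted p under 0.05 in edgeR, where 0% of all genes did. At an unadjusted p under 0.05, 3 members (Ier5, Klf4 and Klf2; 8.11%) were lower, against 3.63% of all genes, and 0 were higher, against 5.43%. DESeq2 called 1 member, Ier5, at an adjusted p of 0.0478, where 0.938% of all genes were called, and limma voom called 0, where 2.66% were. The median log2 fold change of the 37 was -0.14 here, -0.33 in HFD+STZ against Chow and -0.56 in METTL3 against Chow, beside medians over all genes of -0.00, -0.02 and -0.01. Below 0 lay 24, 25 and 28 of the 37 in that order, beside 50.4, 51.6 and 50.8% of all genes. The 3 comparisons share libraries, so these counts are not independent of each other.

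Groups that do not overlap were counted too. Every METTL3 library was below every Chow library for 12 members (32.4%), against 8.26% of all genes, and above for 1 (Dusp6), against 10.5%. Every HFD+STZ library was below every Chow library for 8 members (21.6%), against 4.88% of all genes, and above for 1 (Gadd45b), against 5.52%. Between METTL3 and HFD+STZ hearts no member was separated in either direction, where 4.14% of all genes were lower and 5.43% higher. The plot of shares by comparison sets the members beside all genes.

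**Figure D1:**
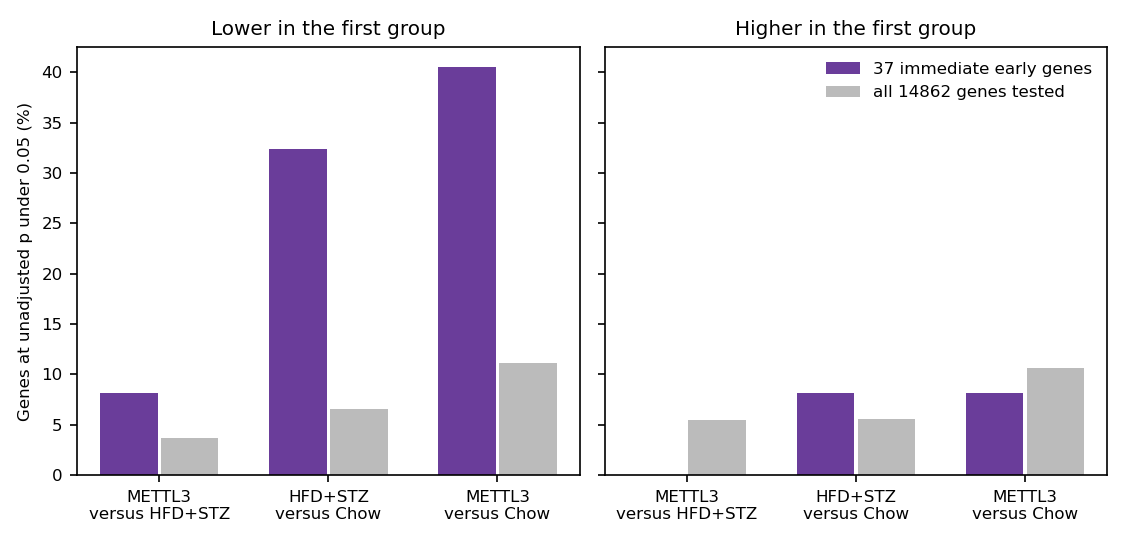
Share of genes, in percent, at an unadjusted p under 0.05 in edgeR's quasi-likelihood test, lower (left panel) or higher (right panel) in the first-named group, for the 37 immediate early genes (purple) and all 14862 genes tested (grey). The members reached 32.4% and 40.5% lower in the comparisons with Chow hearts, against 6.53% and 11.1% of all genes, while their shares higher were 0 to 8.11%. The 37 genes were chosen with earlier results of these data known.

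Within groups the members did not all move with the same library. As the median of centred log2 CPM over the 37, METTL3 hearts lay between -0.22 and -0.18 and Chow hearts at 0.09, 0.44 and 0.48. HFD+STZ hearts spread from -0.30 in replicate 3 to 0.14 in replicate 2. HFD+STZ replicate 1, whose code is in the range of the Chow libraries, was above the other HFD+STZ libraries for 16 of the 37 genes, and for 11 of those 16 (Jun, Jund, Egr3, Klf4, Klf10, Ier2, Dusp6, Zfp36l1, Btg1, Gadd45a and Ier3) it was at or above the lowest Chow library. It was the highest HFD+STZ library for 43.2% of the members, against 32.8% of all 14862 genes, and both held for 29.7% of the members, against 30.8% of all genes. METTL3 replicate 4, in the same code range, was the highest METTL3 library for 32.4% of the members and 25% of all genes. With code range in the model, the members at an unadjusted p under 0.05 in HFD+STZ against Chow numbered 7, against 15 without it, while the share of all genes was 4.99%, against 12.1%. The adjusted calls in METTL3 against Chow numbered 0, against 7, while over all genes they numbered 1, against 475.

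**Figure D2:**
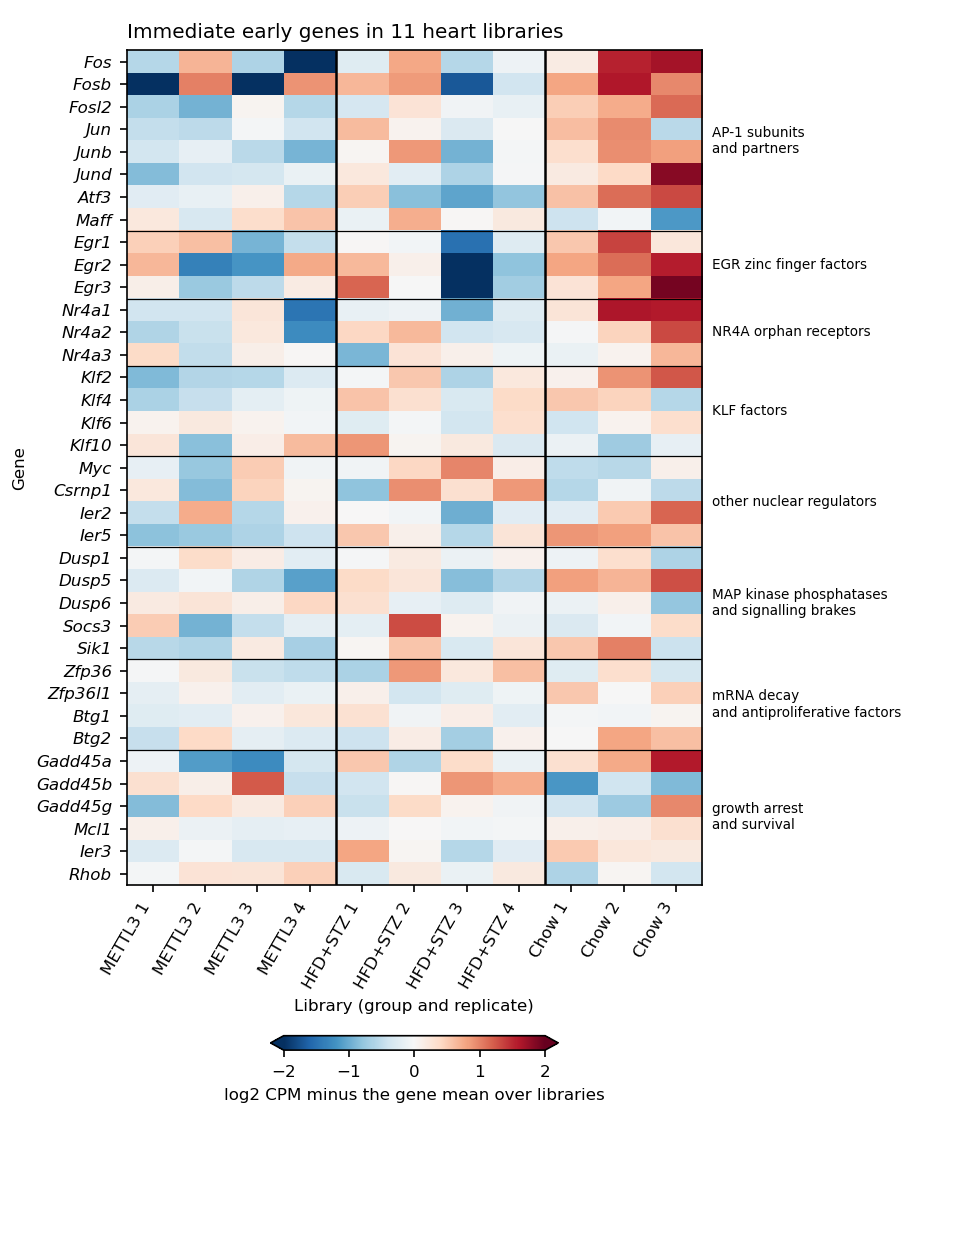
log2 CPM minus the gene's mean over the 11 libraries (colour, from -2 to 2, values beyond shown at the end colours) for each of the 37 genes (down the page, by role) in each library (across, METTL3, HFD+STZ, Chow). Red cells gather in Chow replicates 2 and 3 among most AP-1, EGR and NR4A genes. Maff, Myc, Csrnp1 and Gadd45b show blue cells in 1 or more Chow libraries. Jun, Klf4, Dusp1, Dusp6 and Sik1 are among the other genes with a blue cell in Chow replicate 3.

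The promoters of 4 of the 7 genes that fell are shown because each holds a CArG box or the GC-rich site that EGR proteins bind. Each runs 5′ to 3′ from 250 bases before to 50 after the start of a RefSeq transcript (build GRCm38.p6), in lower case with the match in capitals. Nr4a1 (chr15:101266596-101266895, plus strand) has an EGR site with its first base at -60, read on the opposite strand. Fosl2 (chr5:32136222-32136521, plus strand) has one at -79, and Klf2 (chr8:72318812-72319111, plus strand) one at -199. Dusp5 (chr19:53528895-53529194, plus strand) has 2 CArG boxes side by side, at -82 and -72. The windows of Ier5, Jund and Gadd45a, which fell too, held 0 matches to any pattern searched and are not shown.
Nr4a1: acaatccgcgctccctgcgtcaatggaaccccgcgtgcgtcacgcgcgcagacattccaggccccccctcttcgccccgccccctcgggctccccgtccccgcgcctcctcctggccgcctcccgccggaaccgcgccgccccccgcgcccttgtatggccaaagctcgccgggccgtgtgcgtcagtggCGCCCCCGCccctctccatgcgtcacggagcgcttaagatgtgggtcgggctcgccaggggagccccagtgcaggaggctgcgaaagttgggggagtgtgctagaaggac
Fosl2: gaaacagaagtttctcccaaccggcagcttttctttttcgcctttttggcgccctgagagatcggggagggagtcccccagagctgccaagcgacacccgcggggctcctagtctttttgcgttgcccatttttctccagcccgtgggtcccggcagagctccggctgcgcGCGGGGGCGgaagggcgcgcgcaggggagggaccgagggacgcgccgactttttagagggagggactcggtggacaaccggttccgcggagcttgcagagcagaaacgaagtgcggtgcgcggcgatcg
Klf2: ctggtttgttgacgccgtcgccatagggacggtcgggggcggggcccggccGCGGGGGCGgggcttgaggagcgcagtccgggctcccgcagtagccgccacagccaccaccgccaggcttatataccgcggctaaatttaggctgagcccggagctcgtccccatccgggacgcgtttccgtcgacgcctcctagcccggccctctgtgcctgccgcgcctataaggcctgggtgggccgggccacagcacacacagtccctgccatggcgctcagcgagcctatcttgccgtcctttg
Dusp5: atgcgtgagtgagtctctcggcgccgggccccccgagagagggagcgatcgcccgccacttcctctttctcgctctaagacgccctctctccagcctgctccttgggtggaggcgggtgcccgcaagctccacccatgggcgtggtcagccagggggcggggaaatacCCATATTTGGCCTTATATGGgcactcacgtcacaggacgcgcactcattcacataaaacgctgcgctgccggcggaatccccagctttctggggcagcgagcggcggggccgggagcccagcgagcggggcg

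Windows of this length were matched by symbol for 31 of the 37 members, with 40 windows in all, and no window was used for Egr1, Egr3, Ier2, Klf10, Myc and Sik1. On either strand, the EGR site GCGNGGGCG was found for 11 of the 31 (35.5%), against 6.27% of all 27025 genes in the table: Fosb, Fosl2, Maff, Nr4a1, Nr4a2, Klf2, Klf4, Socs3, Zfp36, Btg2 and Gadd45b. These include genes that were lower and genes that were higher in diabetic-model hearts. The CArG box was found for Egr2, Dusp5 and Zfp36 (9.7%, against 1.81% of genes), and the cyclic AMP response element TGACGTCA for Maff, Dusp1 and Btg2 (9.7%, against 2.03%). The AP-1 site TGANTCA was found for 2 (6.5%, against 8.97%) and TATAAA for 7 (22.6%, against 15.67%). TATAAA can lie inside a CArG box, and did so for no member, and the other patterns cannot contain each other. The members' windows were richer in G and C, with a median of 63.3% against 52.7% over 32851 windows, and the part of base composition in the EGR match was not tested. A match is a description of letters and not evidence of binding.

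AP-1 is the dimer of a FOS and a JUN protein that binds the site named above. Of its 8 genes here, 7 were below 0 in METTL3 against Chow, 6 of them at an unadjusted p under 0.05, and edgeR called Fosl2 and Jund after adjustment. DESeq2 called Junb and Atf3 as well, and limma voom all 7. Fosl2, the FOS-related partner with the steadiest difference, had 19.3, 15.5, 31.1 and 20.1 CPM in METTL3 hearts, 23.7, 36.2, 28.4 and 27.1 CPM in HFD+STZ hearts, and 42.1, 49.8 and 65.5 CPM in Chow hearts. All METTL3 and all HFD+STZ libraries lay below the lowest Chow library. Fosl2 fell to 0.41 times the Chow level in METTL3 hearts (log2 fold change -1.29 (SE 0.24), adjusted p = 0.0250), and was at 0.55 times in HFD+STZ hearts (log2 fold change -0.86 (SE 0.24), adjusted p = 0.202).

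Fos, the founding member, had 3.21, 7.86, 3.10 and 0.627 CPM in METTL3 hearts, 4.08, 8.33, 3.21 and 4.50 CPM in HFD+STZ hearts, and 5.44, 14.2 and 15.5 CPM in Chow hearts. Chow replicate 1 lay inside the range of the other groups, and only Chow replicates 2 and 3 stood above all of them. Its log2 fold change was -1.66 (SE 0.59) in METTL3 against Chow (adjusted p = 0.131) and -1.22 (SE 0.58) in HFD+STZ against Chow (adjusted p = 0.420). Fosb was near the floor, with 0, 1.17, 0 and 1.08 CPM in METTL3 hearts, 0.893, 1.03, 0.0697 and 0.365 CPM in HFD+STZ hearts, and 0.985, 1.83 and 1.13 CPM in Chow hearts. The 2 libraries at 0 allow up to 0.235 and 0.227 CPM (3 counts each, counting error only), and edgeR's 95% interval of METTL3 against Chow ran from -3.60 to 1.13 on the log2 scale. For that comparison the log2 fold change of Fosb was -3.62 in limma voom (adjusted p = 0.0339) and -1.25 in DESeq2 (adjusted p = 0.550), so its call rests on the tool.

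Jun, the main DNA-binding partner of FOS, had 43.01, 41.5, 58.4 and 45.9 CPM in METTL3 hearts, 92.7, 63.1, 49.1 and 59.8 CPM in HFD+STZ hearts, and 91.7, 116 and 41.3 CPM in Chow hearts. Chow replicates 1 and 2 were high, as was HFD+STZ replicate 1, and Chow replicate 3 was the lowest of all 11 libraries. The log2 fold change in METTL3 against Chow was -0.81 (SE 0.30), adjusted p = 0.145, and without Chow replicate 3 the adjusted p was 0.0147. Junb, which can oppose JUN, had 16.5, 18.97, 14.6 and 11.1 CPM in METTL3 hearts, 21.8, 38.8, 10.9 and 20.6 CPM in HFD+STZ hearts, and 26.9, 40.8 and 37.4 CPM in Chow hearts. Every METTL3 library lay below every Chow library, and HFD+STZ libraries overlapped both groups. Its log2 fold change in METTL3 against Chow was -1.20 (SE 0.33), adjusted p = 0.0687. Junb overlaps Prdx2 on the opposite strand, a gene with 50460 counts over all libraries against 4222 for Junb. No source used here says whether the counting used strand, so reads of Prdx2 may be counted in Junb or not.

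Jund, the JUN protein most present in resting cells, had 23.03, 32.4, 33.1 and 38.4 CPM in METTL3 hearts, 48.7, 36.4, 27.4 and 41.6 CPM in HFD+STZ hearts, and 47.8, 55.9 and 149.6 CPM in Chow hearts. The Chow value of replicate 3 was far above the other 2, which in turn overlapped HFD+STZ replicate 1. Jund fell in METTL3 against Chow (log2 fold change -1.41 (SE 0.35), adjusted p = 0.0487), but without Chow replicate 3 the log2 fold change was -0.72 and the adjusted p 0.0777. Atf3, a stress-induced partner and repressor, had 5.17, 5.43, 6.49 and 4.03 CPM in METTL3 hearts, 8.60, 3.34, 2.86 and 3.47 CPM in HFD+STZ hearts, and 9.17, 13.2 and 15.3 CPM in Chow hearts. All libraries of both diabetic-model groups lay below the lowest Chow library, and within HFD+STZ hearts replicate 1 stood apart from the other 3. Its log2 fold change was -1.45 (SE 0.37) in HFD+STZ against Chow (adjusted p = 0.152), and without HFD+STZ replicate 1 it was -1.96 with an adjusted p of 0.00744. In METTL3 against Chow it was -1.25 (SE 0.37), adjusted p = 0.0783. Maff, a small MAF protein that pairs with other leucine zippers, ran the other way. Maff had 16.6, 11.4, 18.3 and 21.5 CPM in METTL3 hearts, 13.1, 24.02, 14.6 and 16.6 CPM in HFD+STZ hearts, and 10.8, 13.9 and 6.42 CPM in Chow hearts. Chow replicate 3 was the lowest library and HFD+STZ replicate 2 the highest, and the groups overlapped. Its log2 fold change was 0.71 (SE 0.30) in METTL3 and 0.72 (SE 0.30) in HFD+STZ against Chow (adjusted p = 0.194 and 0.376).

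**Figure D3:**
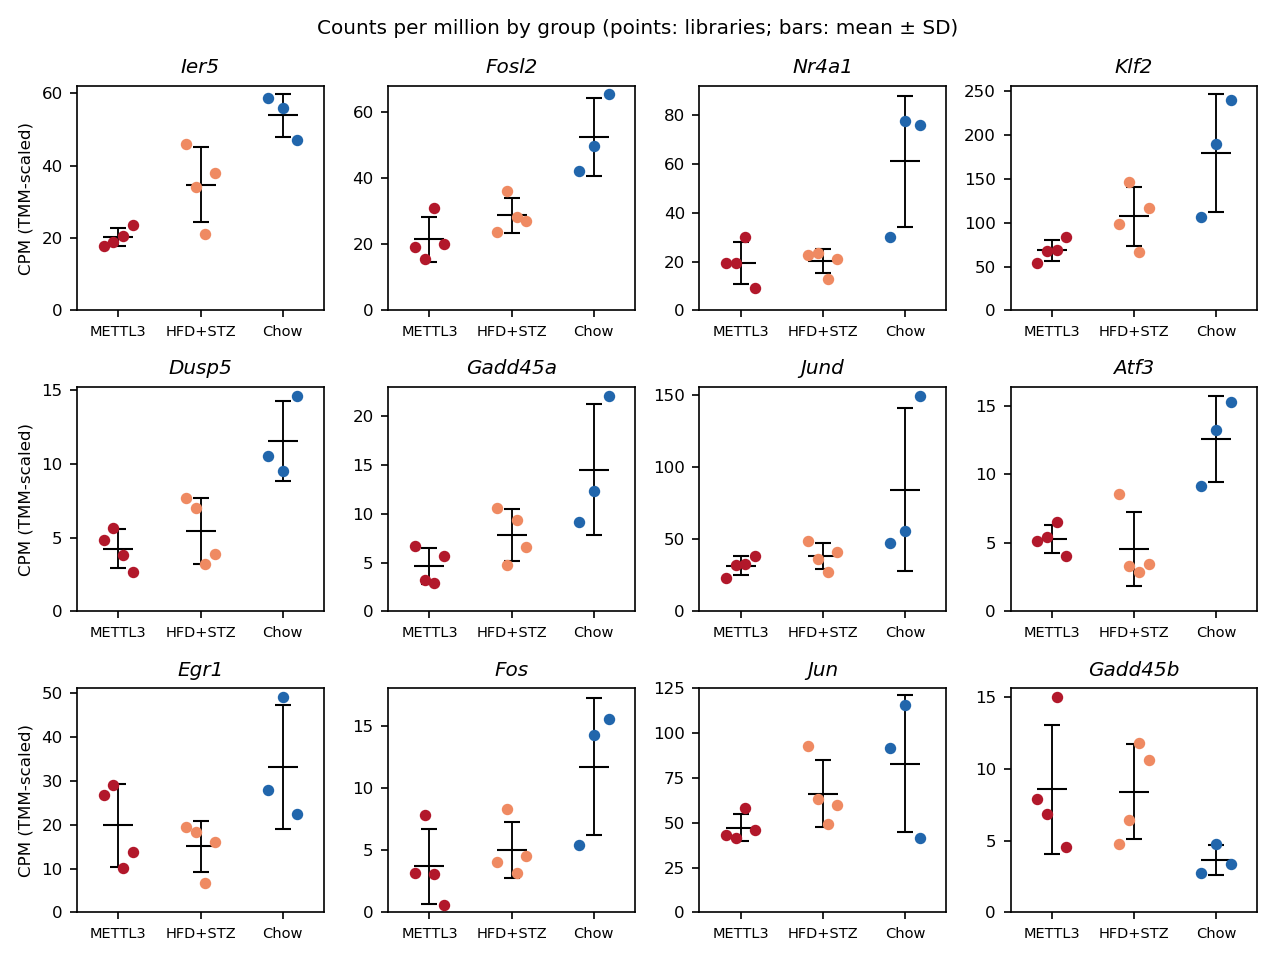
CPM scaled by TMM (vertical axis, from 0) of 12 members in each library (points) by group (METTL3, HFD+STZ, Chow from left to right), with bars for the mean ± SD. Ier5 lies at 17.8 to 23.7 CPM in METTL3 hearts and at 47.2 to 58.7 CPM in Chow hearts, Jund has 1 Chow point at 149.6 CPM, and Gadd45b is lowest in Chow hearts.

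The EGR zinc finger factors bind G and C rich sites and are early readouts of MAP kinase signals. Egr1 had 26.8, 29.2, 10.04 and 13.7 CPM in METTL3 hearts, 19.4, 18.4, 6.69 and 16.01 CPM in HFD+STZ hearts, and 27.9, 49.1 and 22.4 CPM in Chow hearts. HFD+STZ hearts were all below Chow hearts, whereas METTL3 hearts reached from below to inside the Chow range. The log2 fold change was -1.13 (SE 0.42) in HFD+STZ against Chow (adjusted p = 0.334), -0.73 (SE 0.42) in METTL3 against Chow (adjusted p = 0.330) and 0.40 (SE 0.39) in METTL3 against HFD+STZ (adjusted p = 0.811). Egr2 and Egr3 were rarer, with ranges over libraries of 0.0697 to 2.76 CPM and 0.348 to 9.57 CPM. Both were lowest in HFD+STZ replicate 3 and highest in Chow replicate 3. edgeR and DESeq2 called none of the 3 in any comparison. In HFD+STZ against Chow, limma voom called all 3, with adjusted p of 0.00421 for Egr1, 0.0345 for Egr2 and 0.0412 for Egr3, and it called Egr1 in METTL3 against Chow (adjusted p = 0.0157).

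The NR4A orphan receptors act without a known ligand and regulate metabolism and survival. Nr4a1 had 19.4, 19.4, 30.1 and 9.14 CPM in METTL3 hearts, 22.7, 23.7, 12.96 and 21.2 CPM in HFD+STZ hearts, and 30.3, 77.6 and 75.9 CPM in Chow hearts. Chow replicates 2 and 3 were far above all other libraries, and Chow replicate 1 was within 1 CPM of METTL3 replicate 3. Nr4a1 fell to 0.319 times the Chow level in METTL3 hearts (log2 fold change -1.65 (SE 0.38), adjusted p = 0.0407). In HFD+STZ against Chow the log2 fold change was nearly as large, -1.60 (SE 0.38), with an adjusted p of 0.133. METTL3 against HFD+STZ gave -0.04 (SE 0.36), with a 95% interval from -0.82 to 0.73. Nr4a2 and Nr4a3 ranged from 0.896 to 5.97 CPM and from 5.08 to 15.4 CPM, both highest in Chow replicate 3, and none of the 3 tools called either.

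Among the KLF factors, Klf2 keeps endothelium and T cells quiescent. It was the member with the second highest level per kilobase, 61.0 CPM per kb. Klf2 had 54.6, 67.4, 68.5 and 83.4 CPM in METTL3 hearts, 98.7, 147, 66.2 and 117 CPM in HFD+STZ hearts, and 107, 189.7 and 240.3 CPM in Chow hearts. Every METTL3 library lay below every Chow library, and HFD+STZ libraries reached into both ranges. Klf2 fell to 0.382 times the Chow level in METTL3 hearts (log2 fold change -1.39 (SE 0.29), adjusted p = 0.0317), and the correction for gene length and GC content raised that adjusted p to 0.0725 at a log2 fold change of -0.98. Against HFD+STZ hearts it was -0.65 (SE 0.27), unadjusted p = 0.0350, adjusted p = 0.529. Klf4, its relative in endothelium and smooth muscle, had 34.4, 38.5, 46.7 and 50.3 CPM in METTL3 hearts, 78.96, 67.01, 43.3 and 69.5 CPM in HFD+STZ hearts, and 77.3, 72.7 and 35.9 CPM in Chow hearts. Chow replicate 3 and HFD+STZ replicate 3 were as low as METTL3 hearts. Its log2 fold change in METTL3 against HFD+STZ was -0.61 (SE 0.25), adjusted p = 0.519.

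The other KLF genes overlapped between groups. Klf6, a factor of wound and fibrotic responses, had 78.8, 85.4, 78.4 and 72.5 CPM in METTL3 hearts, 63.6, 73.3, 58.1 and 94.9 CPM in HFD+STZ hearts, and 56.7, 78.7 and 95.02 CPM in Chow hearts. Its highest and lowest libraries were both Chow, and its 95% interval in METTL3 against Chow ran from -0.42 to 0.49 on the log2 scale. Klf10, a target of TGF-beta, averaged 27.96 ± 10.5, 30.8 ± 11.3 and 20.5 ± 4.34 CPM in METTL3, HFD+STZ and Chow hearts, and limma voom alone called it, in METTL3 against Chow (log2 fold change 0.73, adjusted p = 0.0447).

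Ier5, a nuclear regulator of the heat shock factor HSF1, showed the smallest p of all members. Ier5 had 17.8, 18.97, 20.5 and 23.7 CPM in METTL3 hearts, 45.9, 33.99, 21.2 and 38.05 CPM in HFD+STZ hearts, and 58.7, 55.97 and 47.2 CPM in Chow hearts. METTL3 libraries formed a narrow low band, Chow libraries a high one, and HFD+STZ libraries spread between them, with replicate 3 inside the METTL3 range. Ier5 fell to 0.375 times the Chow level in METTL3 hearts (log2 fold change -1.41 (SE 0.23), adjusted p = 0.0146). In METTL3 against HFD+STZ it was -0.78 (SE 0.21), unadjusted p = 0.00282, adjusted p = 0.351, and in HFD+STZ against Chow -0.63 (SE 0.22), adjusted p = 0.323. Its call in METTL3 against Chow was kept in 20 of 23 other settings and lost with the replicate block, with the code range as a covariate and without Chow replicate 2.

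Ier2, a nuclear protein of the same name class, averaged 25.2 ± 11.3 CPM in METTL3 hearts, 20.3 ± 5.57 CPM in HFD+STZ hearts and 36.9 ± 16.98 CPM in Chow hearts, with wide overlap. Myc, the growth regulator, had 4.47, 2.93, 7.17 and 4.75 CPM in METTL3 hearts, 4.75, 6.69, 9.97 and 5.48 CPM in HFD+STZ hearts, and 3.47, 3.39 and 5.40 CPM in Chow hearts. No group stood apart, and HFD+STZ replicate 3 was the highest. The log2 fold change was 0.71 (SE 0.36) in HFD+STZ against Chow (adjusted p = 0.432) and 0.24 (SE 0.36) in METTL3 against Chow (adjusted p = 0.744). Csrnp1, a nuclear factor named for its cysteine and serine rich sequence, averaged 16.5 ± 5.59, 22.4 ± 10.1 and 12.4 ± 2.54 CPM in METTL3, HFD+STZ and Chow hearts. Csrnp1 overlaps the macrophage gene Cx3cr1 on the same strand, whose counts come to 19.28% of its own.

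The phosphatases of the DUSP family remove phosphate from MAP kinases. Dusp5, which acts on nuclear ERK, had 4.86, 5.68, 3.85 and 2.69 CPM in METTL3 hearts, 7.71, 6.99, 3.21 and 3.90 CPM in HFD+STZ hearts, and 10.5, 9.52 and 14.6 CPM in Chow hearts. Every library of both diabetic-model groups lay below the lowest Chow library. Dusp5 fell to 0.37 times the Chow level in METTL3 hearts (log2 fold change -1.43 (SE 0.35), adjusted p = 0.0470) and was at 0.473 times in HFD+STZ hearts (adjusted p = 0.268). Without Chow replicate 3 the first of these had an adjusted p of 0.0631. Dusp1, the broad family member and the fourth highest gene per kilobase, had 88.6, 117, 101 and 78.5 CPM in METTL3 hearts, 89.9, 103, 83.6 and 96.1 CPM in HFD+STZ hearts, and 85.1, 114 and 59.2 CPM in Chow hearts. The 3 groups overlapped throughout, and the 95% interval of METTL3 against Chow ran from -0.32 to 0.63. Dusp6, specific for ERK, averaged 41.2 ± 3.72 CPM in METTL3 hearts, 34.1 ± 6.41 CPM in HFD+STZ hearts and 29.8 ± 8.72 CPM in Chow hearts. It was the 1 member with every METTL3 library above every Chow library (log2 fold change 0.46 (SE 0.22), adjusted p = 0.232). Of these phosphatases, Dusp5 alone was called in edgeR.

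Socs3, the brake on cytokine receptor signalling, had 7.29, 2.59, 3.62 and 4.48 CPM in METTL3 hearts, 4.41, 12.8, 5.37 and 4.69 CPM in HFD+STZ hearts, and 4.15, 4.89 and 6.59 CPM in Chow hearts. HFD+STZ replicate 2 was far above the other HFD+STZ libraries, and the groups overlapped. That library and HFD+STZ replicate 3 also had the highest summed neutrophil markers, 39.8 and 38.3 CPM, against 2.19 to 8.62 CPM in the other 9 libraries, and their part in the values of Socs3 was not tested. Sik1, a kinase that restrains CREB coactivators, averaged 22.97 ± 7.01 CPM in METTL3 hearts, 33.3 ± 8.29 CPM in HFD+STZ hearts and 41.6 ± 18.9 CPM in Chow hearts. Its log2 fold change in METTL3 against Chow was -0.86 (SE 0.32), adjusted p = 0.142, and without Chow replicate 3 the adjusted p was 0.022.

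Zfp36 and Zfp36l1 bind AU-rich elements and speed the decay of early-gene mRNAs, and Btg1 and Btg2 recruit the deadenylase that shortens poly(A) tails. Zfp36 had 29.6, 34.5, 21.9 and 21.1 CPM in METTL3 hearts, 19.3, 54.8, 34.6 and 45.6 CPM in HFD+STZ hearts, and 25.3, 37.8 and 23.4 CPM in Chow hearts. HFD+STZ replicate 2 was the highest library and HFD+STZ replicate 1 the lowest, so the range of that group covered both others. Zfp36 had a log2 fold change of -0.53 (SE 0.29) in METTL3 against HFD+STZ (adjusted p = 0.628). Btg2 had 23.3, 42.6, 28.4 and 26.5 CPM in METTL3 hearts, 24.2, 35.6, 20.002 and 34.3 CPM in HFD+STZ hearts, and 31.9, 55.6 and 49.1 CPM in Chow hearts. Chow replicates 2 and 3 were high and replicate 1 was inside the other ranges, with log2 fold changes of -0.59 (SE 0.27) in METTL3 against Chow and -0.67 (SE 0.27) in HFD+STZ against Chow (adjusted p = 0.220 and 0.357). Zfp36l1 averaged 33.3 ± 3.18 CPM in METTL3 hearts, 32.6 ± 4.73 CPM in HFD+STZ hearts and 45.9 ± 9.13 CPM in Chow hearts. Btg1 averaged 33.8 ± 5.48, 35.6 ± 5.71 and 34.1 ± 1.42 CPM in METTL3, HFD+STZ and Chow hearts.

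The GADD45 proteins bind stress kinases and cell cycle regulators, and their fold changes differed in sign. Gadd45a had 6.74, 3.26, 2.94 and 5.64 CPM in METTL3 hearts, 10.6, 4.74, 9.34 and 6.64 CPM in HFD+STZ hearts, and 9.12, 12.4 and 22.01 CPM in Chow hearts. All METTL3 libraries were below all Chow libraries, and Chow replicate 3 stood above the other 2. Gadd45a fell to 0.321 times the Chow level in METTL3 hearts (log2 fold change -1.64 (SE 0.39), adjusted p = 0.0430), and without Chow replicate 3 the log2 fold change was -1.22 and the adjusted p 0.0672. Gadd45b had 7.91, 6.85, 15.03 and 4.57 CPM in METTL3 hearts, 4.80, 6.45, 11.8 and 10.7 CPM in HFD+STZ hearts, and 2.75, 4.78 and 3.38 CPM in Chow hearts. HFD+STZ hearts were all above Chow hearts, the narrowest gap being 4.80 against 4.78 CPM. The log2 fold change was 1.21 (SE 0.43) in HFD+STZ against Chow (adjusted p = 0.321) and 1.24 (SE 0.43) in METTL3 against Chow (adjusted p = 0.120). With code range in the model the first was 0.36. Gadd45g had 5.48, 13.4, 11.4 and 14.1 CPM in METTL3 hearts, 7.37, 13.2, 10.6 and 9.56 CPM in HFD+STZ hearts, and 7.72, 6.02 and 19.6 CPM in Chow hearts. Chow replicate 3 was the highest and the other Chow libraries were low, and the groups overlapped (log2 fold change in METTL3 against Chow -0.01 (SE 0.41)).

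Mcl1, which protects against cell death, was the third highest gene per kilobase and one of the steadiest, at 193 ± 17.8 CPM in METTL3 hearts, 198 ± 6.30 CPM in HFD+STZ hearts and 233 ± 19.2 CPM in Chow hearts. All HFD+STZ libraries were below all Chow libraries, at log2 fold change -0.23 (SE 0.15), adjusted p = 0.530. Rhob, a small GTPase of endosomes and the actin skeleton, had the highest level per kilobase, 129 CPM per kb. Rhob had 290.4, 359, 357 and 413 CPM in METTL3 hearts, 242, 340.3, 271 and 339.8 CPM in HFD+STZ hearts, and 194, 305 and 231 CPM in Chow hearts. METTL3 hearts were highest on average but Chow replicate 2 reached into their range, and the log2 fold change in METTL3 against Chow was 0.54 (SE 0.21), adjusted p = 0.157. Ier3, an early gene that modulates survival, averaged 19.8 ± 1.94 CPM in METTL3 hearts, 24.9 ± 10.8 CPM in HFD+STZ hearts and 29.2 ± 3.77 CPM in Chow hearts, and METTL3 libraries lay below Chow libraries without overlap (adjusted p = 0.242).

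**Figure D4:**
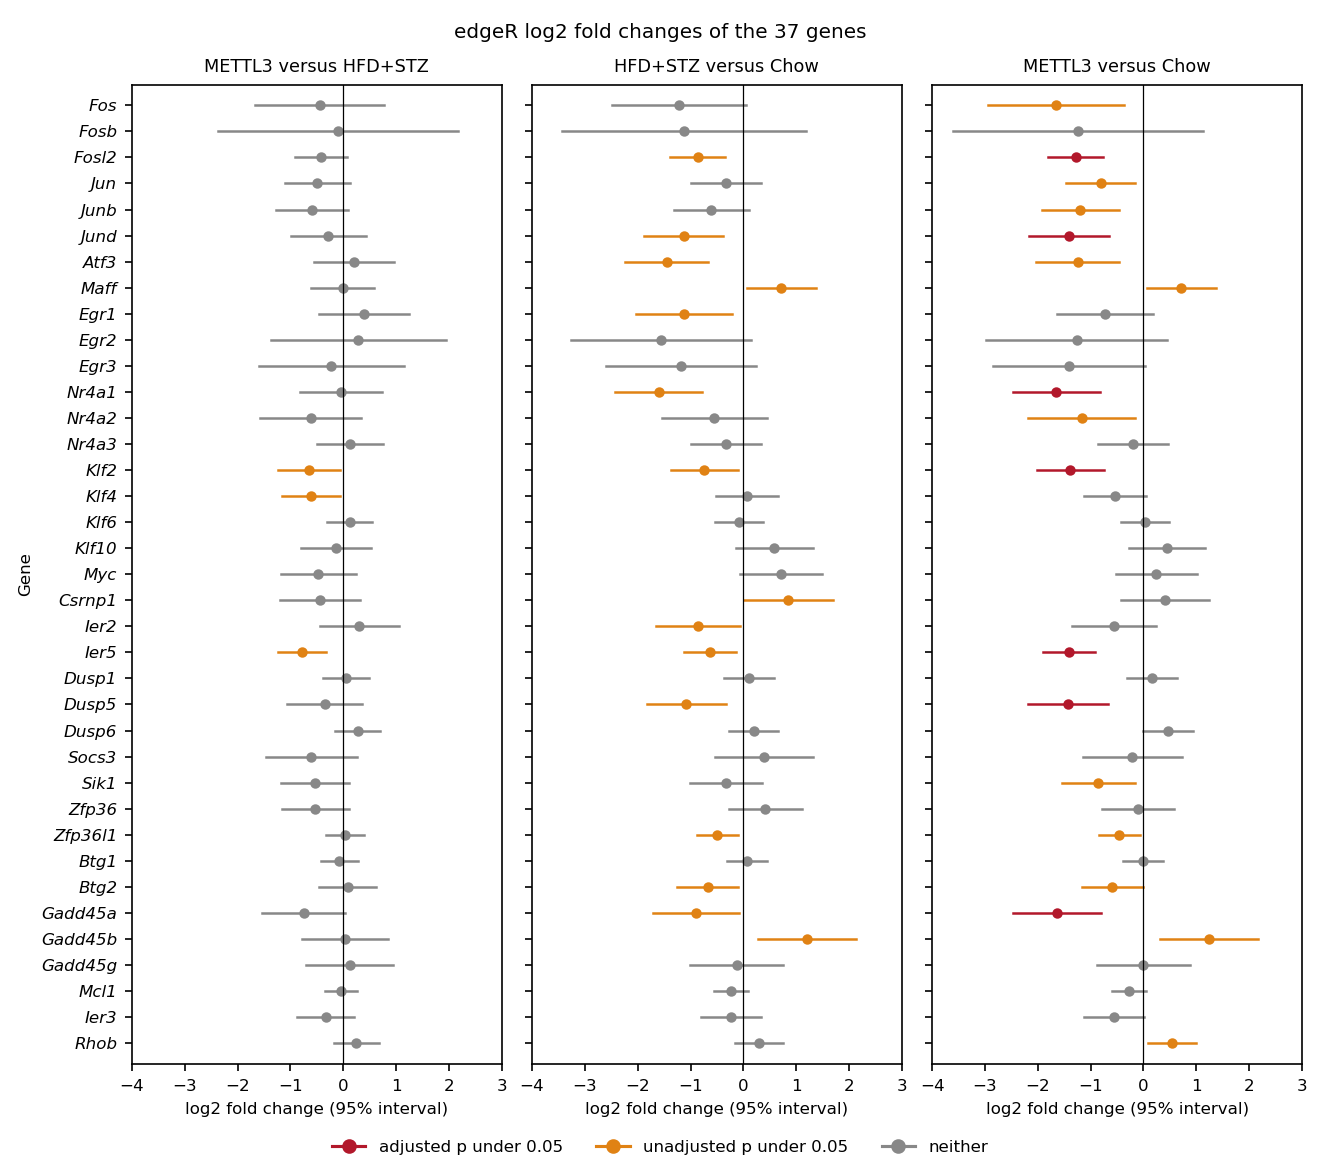
edgeR log2 fold changes (horizontal axis, points) with 95% intervals (lines) of the 37 genes (down the page, by role) in METTL3 against HFD+STZ, HFD+STZ against Chow and METTL3 against Chow, coloured by adjusted p under 0.05 (red), unadjusted p under 0.05 (orange) or neither (grey). Red points are found in METTL3 against Chow alone, 7 genes between -1.65 and -1.29, and all but 3 intervals of METTL3 against HFD+STZ cover 0.

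The call of 7 members in METTL3 against Chow depended on single libraries. Without METTL3 replicate 1, 2, 3 or 4 the count was 1, 1, 2 or 1, without HFD+STZ replicate 2 or 4 it was 3 or 2, and without Chow replicate 2 it was 0, while over all genes it was 73, 160, 64, 38, 206, 186 and 34. Without Chow replicate 3 it was 7, of which Ier5, Fosl2, Klf2 and Nr4a1 were called in both. The members below 0 at an unadjusted p under 0.05 numbered 12 to 17 when any 1 library was left out, where 9.27 to 13.6% of all genes were lower.

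Few other genes of the pathway were called. Of 19 upstream kinases (MAP kinases, their kinases and the RSK and MSK kinases) and 15 upstream transcription factors (SRF, ELK, CREB, CRTC and MEF2 families), 0 reached an adjusted p under 0.05 in any comparison. Of the kinases, 3 were higher and 2 lower at an unadjusted p under 0.05 in METTL3 against Chow. Over all genes 10.6% were higher and 11.1% lower there. Of the transcription factors, 4 (Mef2a, Creb1, Elk3 and Mef2c) were higher and 0 lower at that threshold in METTL3 against HFD+STZ. Over all genes these shares were 5.43% and 3.63%. In METTL3 against Chow 2 of the 15 were higher and 0 lower, and in HFD+STZ against Chow 1 and 1. Of 34 other rapidly induced genes, METTL3 against Chow gave 1 higher, the kinase Sgk1 (log2 fold change 1.02, adjusted p = 0.0299), and 1 lower, the interferon factor Irf1 (log2 fold change -1.02, adjusted p = 0.0357). Over all genes 3.2% were called in METTL3 against Chow, in either direction. In HFD+STZ against Chow, 5.58% of all genes were higher and 6.53% lower at an unadjusted p under 0.05. Of the 34, 8 were higher and 4 lower there. Among them were the cell cycle inhibitor Cdkn1a at a log2 fold change of 2.30 (adjusted p = 0.0838) and the survival kinase Pim3 at 1.33 (adjusted p = 0.201). Of 14 secreted or delayed targets tested, none was called.

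Heat shock genes, which answer protein damage through HSF1, included fold changes beyond those of any member. Of 12, 4 fell in METTL3 against Chow and 2 in HFD+STZ against Chow at an adjusted p under 0.05, and none rose. Over all genes 3.2% and 0.168% were called in that order, in either direction. Hspa1a averaged 1.74 ± 0.50 CPM in METTL3 hearts and 3.28 ± 2.10 CPM in HFD+STZ hearts (SD, n = 4 each), against 21.1 ± 10.3 CPM in Chow hearts (SD, n = 3). Its log2 fold changes were -3.61 (adjusted p = 0.00726) in METTL3 and -2.68 (adjusted p = 0.0469) in HFD+STZ against Chow, and reads may be split with its near-identical copy Hspa1b. Dnajb1, its cochaperone, averaged 12.96 ± 2.45 CPM in METTL3 hearts, 16.3 ± 4.88 CPM in HFD+STZ hearts and 41.4 ± 6.13 CPM in Chow hearts.

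Cell type markers were read beside these values. Summed macrophage markers (7 genes, none at 0 in any library) were 154 to 292 CPM in METTL3 hearts, 232 to 560 CPM in HFD+STZ hearts and 393 to 770.2 CPM in Chow hearts, and 2 of the 7 fell in METTL3 against Chow. Over all genes 3.2% were called in that comparison. Every METTL3 sum lay below every Chow sum, as was so for 12 members (32.4%) and for 8.26% of all genes. The part of macrophages in the results was not tested. Summed endothelial markers (7 genes, none at 0) were 1085 to 1402 CPM in METTL3 hearts, 850 to 1295 CPM in HFD+STZ hearts and 1057 to 1148 CPM in Chow hearts, with no call. The part of endothelial cells in the values of Klf2 was not tested. Of the cardiomyocyte, fibroblast, smooth muscle and pericyte, neutrophil, lymphocyte, adipocyte, blood, atrial and skeletal muscle markers, 1 was called in any comparison, a skeletal muscle marker lower in METTL3 against Chow. In whole-heart RNA, fewer cells of a type and less RNA per cell cannot be told apart.

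The members did not vary as 1 block. Over the 666 pairs of members, the median Spearman correlation across the 11 libraries was 0.15, as a description of libraries that share groups and composition. Of these pairs 420 were above 0. Jun and Klf4 were most alike (0.91), and Egr2 with Egr3 and Jund with Ier5 followed (0.90 each). The most opposed pairs were Egr1 with Myc (-0.91) and Maff with Zfp36l1 (-0.86). Outside the list, the genes most like the members' mean profile among 10063 genes were Dut (0.95), Ssbp4 (0.94), Csk (0.93), Xrcc1 (0.93) and Dgcr6 (0.92), likewise over 11 libraries. The log2 fold change of all genes fell with transcript GC content in METTL3 against HFD+STZ (Spearman correlation across genes -0.50, and -0.10 across the 37). It was -0.35 in METTL3 against Chow (-0.09 across the 37) and -0.03 in HFD+STZ against Chow (-0.04 across the 37). The members' median GC content was 54.1%, against 49.6% over all genes. With offsets for length and GC content, the median log2 fold changes of the members were -0.10, -0.46 and -0.43 in METTL3 against HFD+STZ, HFD+STZ against Chow and METTL3 against Chow, and 2 members, Ier5 and Fosl2, were called in METTL3 against Chow.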

How the data were processed

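Total RNA of whole hearts was sequenced in 11 libraries after ribosomal RNA depletion, per the labels' protocols. The deposited table holds raw counts per gene; FastQC, Salmon and the build mm10 appear in the submitters' processing notes, without versions. No source used here gives strand use or the annotation version, and transcript-level estimation can share reads among near-identical genes. The counts were analysed as deposited with edgeR 4.0.16 in R 4.3.3 (TMM, filterByExpr with a minimum count of 10 and total of 15, glmQLFit and glmQLFTest on group means of all 11 libraries, Benjamini-Hochberg over 14862 genes). DESeq2 1.42.0 and limma 3.58.1 were alternatives. The test was checked on simulated counts. SE is the log2 fold change over the square root of F. The centred values use log2 CPM with a prior count of 2. The 37 members and the other gene lists were chosen with earlier results of these data known. Values in every library are given for 18 fixed members and the 6 members with the smallest p in each comparison. The labels do not say that replicate numbers pair the samples. No 2 libraries agreed within sampling noise, as the chi-square per degree of freedom of their counts was at least 14.46. Chow replicate 3 differed most from the rest. Its values were 314.1 and 278.9 with Chow replicates 1 and 2, against 17.54 between those replicates. Promoters are RefSeq windows, build GRCm38.p6. Lymphocyte, adipocyte, blood, atrial, smooth muscle and skeletal muscle markers were also summed.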

Additional observations from a re-analysis of the deposited data

Results flagged for a closer look

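In 74 groups of 4 libraries (37 members in METTL3 and in HFD+STZ hearts), 4 held a library that stood apart from the other 3 by Dixon's test. About 1 in 20 groups would be expected to do so by chance. Sik1 was 33.45 CPM in METTL3 replicate 3, against 18.73 to 20.13 CPM in the other METTL3 hearts. Ier3 was 22.73 CPM in METTL3 replicate 2, against 18.65 to 19.27 CPM in the others. Atf3 was 8.6 CPM in HFD+STZ replicate 1, against 2.857 to 3.47 CPM in the other HFD+STZ hearts. Socs3 was 12.83 CPM in HFD+STZ replicate 2, against 4.412 to 5.366 CPM in the others.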

How the results depend on the processing

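No called result reversed, and the members' median stayed below 0 in each fit of each comparison. In METTL3 against HFD+STZ, the members at an unadjusted p under 0.05 numbered 3 (9.06% of all genes), and 7 with limma voom (21.5%), 9 with no filter (6.46%), 6 with only the groups compared (16.4%), 7 within sample codes 25 to 33 alone (17.6%), and 9 without both Chow replicate 3 and HFD+STZ replicate 1 (21.7%); each percentage here is the share of all genes past the same threshold in the same fit. Leaving out 1 library gave 1 to 7 (5.51 to 17.1%), and medians of -0.30 to -0.072 around -0.14. DESeq2 called 1 after adjustment (0.938%). In HFD+STZ against Chow, 0 were called after adjustment by edgeR (0.168%), 2 by DESeq2 (2.07%), 14 by limma voom (13.1%), 3 with no filter (0.698%) and 3 without both of those libraries (3.28%; median -0.52, against -0.33). Leaving out 1 library gave 0 to 1 calls (0.00654 to 1.47%) and medians of -0.56 to -0.33. At an unadjusted p under 0.05 there were 15 (12.1%), with 26 in limma voom (28.9%) and 7 with code range as a covariate (4.99%). In METTL3 against Chow, the 7 calls (3.2%) became 17 in limma voom (20.7%; median -0.79), 12 without both libraries (8.38%), 2 with length and GC offsets (1.29%), 1 with only the groups compared (0.38%) and 0 with code range (0.00673%). Leaving out 1 library gave 0 to 7 calls (0.222 to 4.92%) and medians of -0.76 to -0.49. Same-numbered libraries correlated at -0.23 to 0.16 in their deviations from group means. With so few libraries these values cannot settle whether the numbers mark pairs. The replicate block gave 0 calls in METTL3 against Chow (0.0336%), with 14 members at an unadjusted p under 0.05 (15.6%). Of 23 alternatives, Ier5 kept its call in 20, Fosl2 in 16, Klf2 in 13, Nr4a1 in 12, Dusp5 and Gadd45a in 10 and Jund in 7. Uncalled log2 fold changes near 0 changed sign in 28, 19 and 19 fits of single genes in METTL3 against HFD+STZ, HFD+STZ against Chow and METTL3 against Chow. The causes were not tested. Fosb, Egr2, Egr3 and Nr4a2 are limited by depth, and Fosb had 0 counts in 2 libraries.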
